A study of Mus musculus with 10 samples.

Results

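Aminoacyl-tRNA synthetases join each amino acid to its tRNA, and their genes were followed by ribosome profiling (Ribo-seq) of the mouse neocortex during neurogenesis. Members were chosen by a rule on the symbol, with earlier results of these data known. The rule took symbols of a letter code followed by "ars", with or without the 2 that marks most mitochondrial enzymes. It also took Eprs, Farsa, Farsb, Aimp1, Aimp2 and Eef1e1. This found 40 of the 22373 genes in the table, and all 40 were among the 13484 genes that passed the filter of 32 counts in a stage. They comprise 8 enzymes of the cytosolic multi-synthetase complex, 12 other cytosolic genes, 17 mitochondrial enzymes, and 3 scaffold proteins of the complex. Neocortex was dissected from embryos at E12.5, E14, E15.5 and E17 and from pups on the day of birth (P0). All 5 groups came, per the study's methods, from timed pregnant wild-type CD-1 mice of both sexes, without a genetic change. Lysates of all groups were digested with RNAse-T1 and RNAse-A, and each library pooled many brains, so that the 2 replicates of a stage are pools and not single animals.

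Most synthetases recognise a single amino acid and its tRNAs, and so set the supply and the accuracy of the charged tRNAs that ribosomes use. In the cytosol of animal cells, enzymes for several amino acids sit in the multi-synthetase complex, which is held together by the scaffold proteins Aimp1, Aimp2 and Eef1e1, whereas the others are free. Mitochondria translate their own mRNAs with a separate set of nuclear-encoded synthetases, except that Kars and Gars each encode the lysyl and glycyl enzymes of both compartments. Mutations in many of these genes cause disorders of the nervous system.

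Footprints (ribosome-protected mRNA fragments) are reported as CPM (counts relative to the library total after TMM scaling), and depend on how much of an mRNA is present as well as on how densely ribosomes cover it. Libraries held between 7544404 and 36129988 counts, of which between 10137 and 53386 fell on the 40 genes. The library with the fewest was P0 replicate 1. Over the 40 genes, the SD of the log2 ratio between replicates was 0.16 to 0.25 in the embryonic stages and 0.41 at P0, and over the 4559 genes that averaged 500 counts or more it was 0.12 to 0.22 and 0.53. All 8 markers of neocortex were detected, with a summed level of 699 to 724 CPM at E12.5 and 668 to 673 at P0. Markers of other cells moved with the stages. The sum of 7 markers of cycling progenitors was 971 to 977 CPM at E12.5, then 708 to 719 (E14), 374 to 376 (E15.5), 232 to 246 (E17) and 107 to 131 (P0). The sum of 5 red blood cell markers went from 6200 to 6440 CPM at E12.5 to 722 to 927 at P0, that of 5 markers of meningeal fibroblasts from 95.6 to 98.9 CPM to 2.63 to 3.81, and that of 5 endothelial markers from 28.0 to 29.7 CPM to 4.96 to 8.38. The 5 choroid plexus markers summed to 272 to 323 CPM at E12.5, 1110 to 1120 at E14 and 10.5 to 13.3 at E15.5, the 6 markers of the ganglionic eminence to 12.2 CPM at E12.5 and 104 to 115 at P0, and the 5 of microglia to 19.4 to 19.7 and 15.7 to 18.3. No marker was at 0 in all libraries. In bulk tissue, fewer cells of a type and fewer footprints per cell cannot be told apart, and the part of these markers in the results that follow was not tested.

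The summed footprints of the classes took different courses across the 5 stages. The 8 complex enzymes summed to 415 and 418 CPM at stage E12.5, then 351 and 358 (E14), 291 and 296 (E15.5), 269 and 266 (E17) and 243 and 294 (P0). On this scale every embryonic stage lay below the one before it without overlap, and the P0 libraries spread around the E17 values. Scaled by total counts alone, the class summed to 338 to 353 CPM at E12.5, 298 to 313 at E14, 308 to 313 at E15.5, 294 to 296 at E17 and 297 to 346 at P0, so that E14 overlapped with E15.5 and E12.5 with P0. The 12 other cytosolic genes summed to 558 ± 17.7 CPM (SD, n = 2) at E12.5, 606 ± 16.1 at E15.5 and 645 ± 82.2 at P0, the 17 mitochondrial enzymes to 136 ± 14.3, 125 ± 1.29 and 134 ± 16.8, and the 3 scaffold genes to 142 ± 6.44, 143 ± 5.82 and 140 ± 19.7. In these 3 classes the P0 replicates lay farther apart than these means did. Taken as a share of all raw counts, without TMM scaling, the 40 genes held 0.104% ± 0.0015 at E12.5 and 0.142% ± 0.011 at P0 (SD, n = 2). A moderated F test over the stages (limma-voom, adjusted over all genes tested) found that 21 of the 40 genes changed, where the background over all genes was 63.8%. These were 6 of 8 complex enzymes, 7 of 12 other cytosolic genes, 7 of 17 mitochondrial enzymes and 1 of 3 scaffold genes. For the fits that follow, the share of all genes called is not given. The count was 12 without E12.5 replicate 1, 13 without E12.5 replicate 2 and 11 without E17 replicate 1.

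**Figure D1:**
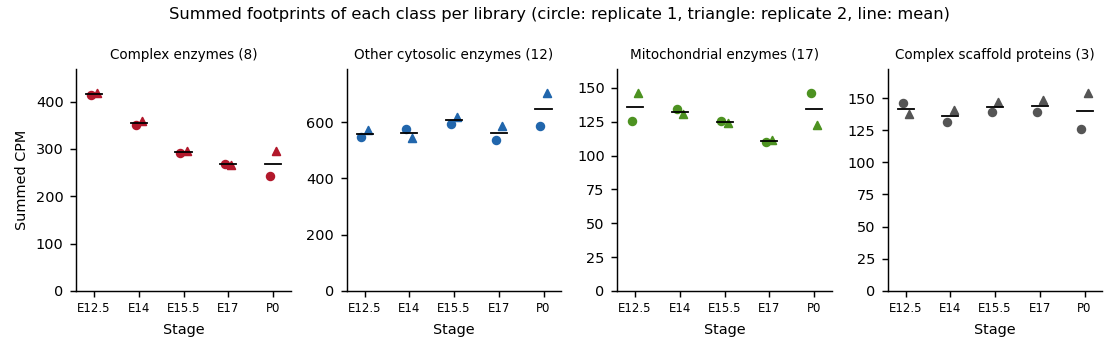
Summed CPM (TMM-scaled, linear axes from 0, a separate scale per panel) of each class at the 5 stages, with circles for replicate 1, triangles for replicate 2 and a line for their mean. Complex enzymes went from 415 and 418 CPM at E12.5 to 269 and 266 at E17 (338 to 353 and 294 to 296 with total counts only, where E14 and E15.5 overlapped), and the sums of the mitochondrial and scaffold classes at P0 overlapped those at E12.5.

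**Figure D2:**
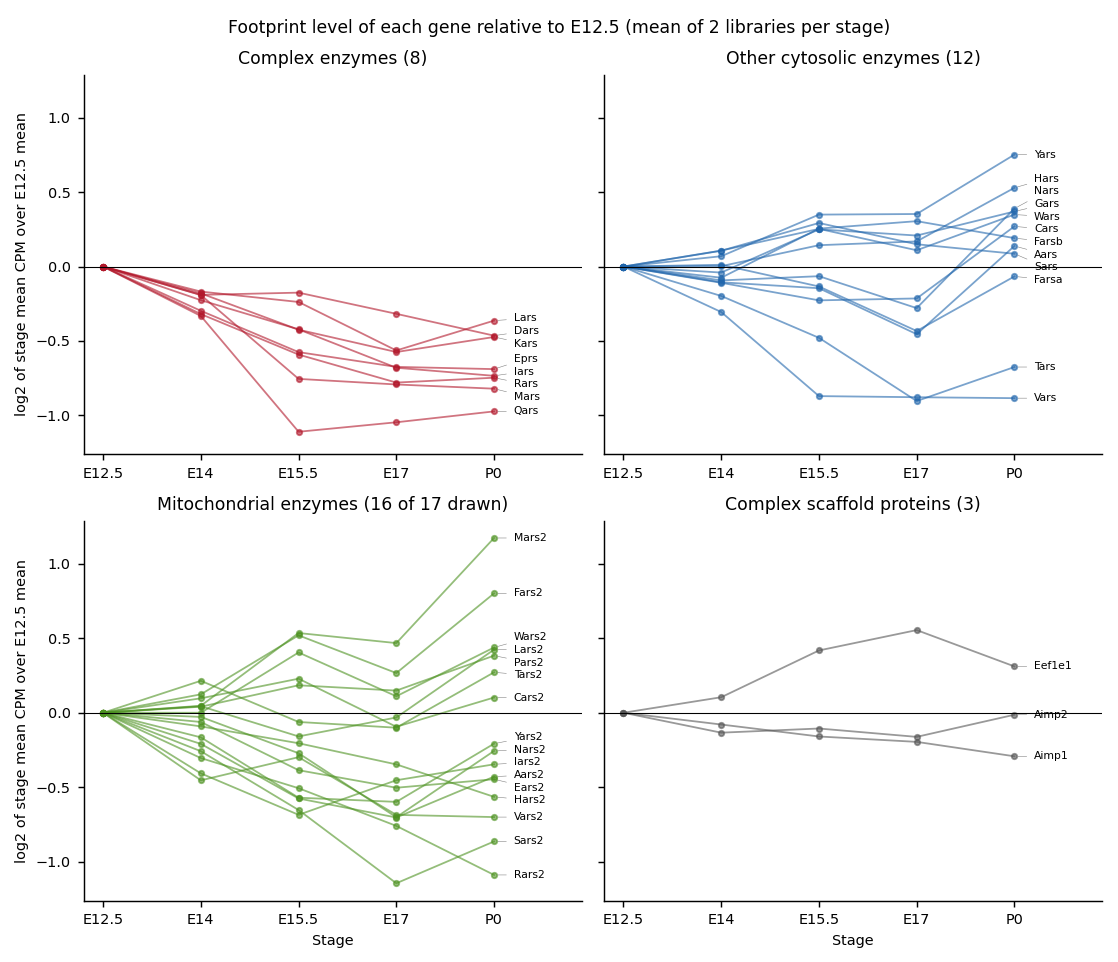
The log2 ratio of each gene's stage mean CPM to its E12.5 mean, 1 line per gene for 39 of the 40 genes and 1 panel per class, with TMM scaling. All 8 complex enzymes lay below 0 at P0, and 5 of 8 did so with total counts, whereas the other cytosolic and the mitochondrial panels spread to both sides.

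Between E12.5 and P0, the longest span in the study, 19 of the 40 genes changed, 6 higher and 13 lower at P0 (limma-voom, Benjamini-Hochberg adjusted over all genes tested). The background over all genes was 62.1%, with 30.1% higher and 32% lower. All 6 that rose were outside the complex (Yars, Hars, Nars, Gars, Mars2 and Fars2). The 13 that fell were 6 complex enzymes, Vars and Tars among the other cytosolic genes, and the mitochondrial Rars2, Sars2, Vars2, Hars2 and Ears2. Of the 19 calls, 13 held whichever single library was left out. The split depends on scaling. With total counts only, the median of all genes moved by 0.51 on the log2 scale, and 19 of the 40 genes were called higher and 3 lower, these 3 being Mars, Qars and Vars. Of all genes, 47.8% were then called higher and 18.6% lower.

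**Figure D3:**
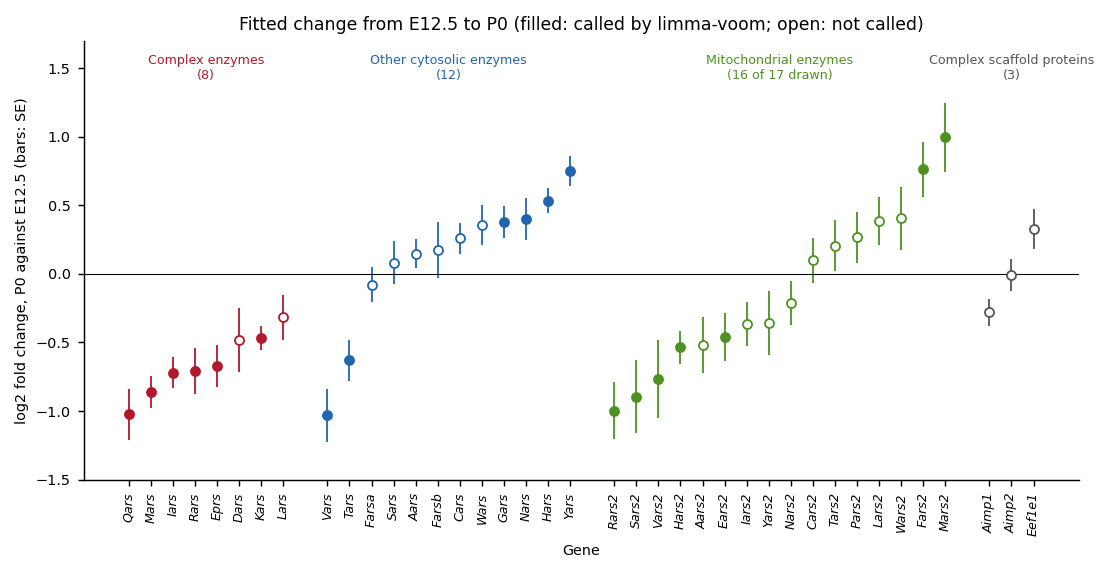
Fitted log2 fold change of P0 against E12.5 for 39 of the 40 genes with bars for 1 SE, ordered within each class, filled where called and open where not. With TMM scaling the complex enzymes run from -1.02 (Qars) to -0.32 (Lars), all below 0, of which 5 of 8 remained below 0 with total counts, and the mitochondrial enzymes run from -0.996 (Rars2) to 0.996 (Mars2).

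The multi-synthetase complex enzymes had lower footprints at P0 than at E12.5, with a median log2 difference of -0.69 where the median over all genes was -0.01. All 8 values were below 0 and 6 passed the test, a share of this class that can be read against the 32% of all genes called lower. With total counts the class median was -0.16, with 5 of 8 below 0 and 2 called lower, where 18.6% of all genes were called lower. Its distance from the median of all genes was then -0.67 instead of -0.68. A change of scaling shifts all genes alike, so this distance was nearly fixed in advance. Qars (ENSMUSG00000032604), the glutaminyl-tRNA synthetase, was at 59.4 and 75.5 CPM at stage E12.5, then 52.9 and 54.3 (E14), 34.1 and 28.4 (E15.5), 32.9 and 32.4 (E17) and 40.6 and 28.1 (P0). Both libraries of E15.5, E17 and P0 lay below all 4 earlier ones, and the replicates at E12.5 and at P0 differed widely. Its difference between P0 and E12.5 was -1.02 on the log2 scale (SE 0.19, adjusted p = 0.00156), a 2.03-fold lower level, and its step from E14 to E15.5 was -0.78 on the log2 scale (SE 0.18, adjusted p = 0.0117). Mars (ENSMUSG00000040354), the methionyl-tRNA synthetase that also charges the initiator tRNA, was at 27.3 and 27.9 CPM at stage E12.5, then 24.1 and 24.3 (E14), 16.8 and 15.9 (E15.5), 16.4 and 15.4 (E17) and 17.2 and 14.1 (P0). Here the libraries of E12.5, E14 and the later stages formed 3 separate levels, and replicates lay close at every embryonic stage. Mars fell by 0.86 on the log2 scale from E12.5 to P0 (SE 0.12, adjusted p = 0.000308) and by 0.56 from E14 to E15.5 (SE 0.11, adjusted p = 0.0057).

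Kars and Lars had the values nearest to 0 in the complex. Kars (ENSMUSG00000031948), the lysyl-tRNA synthetase of both compartments, was at 111 and 111 CPM at stage E12.5, then 98.5 and 97.7 (E14), 81.5 and 84.0 (E15.5), 74.6 and 74.6 (E17) and 75.4 and 84.7 (P0). Replicates were nearly equal up to E17, each embryonic stage lay below the one before, and P0 overlapped with E15.5. The difference between P0 and E12.5 was -0.47 on the log2 scale (SE 0.09, adjusted p = 0.00211). With total counts this value was 0.06 (adjusted p = 0.558), so the direction for Kars rests on the scaling. Lars (ENSMUSG00000024493), the leucyl-tRNA synthetase, which is also known as a leucine sensor upstream of mTORC1, was at 15.6 and 15.3 CPM at stage E12.5, then 14.4 and 13.1 (E14), 13.1 and 13.1 (E15.5), 10.2 and 10.7 (E17) and 9.68 and 14.3 (P0). Its difference between P0 and E12.5, -0.32 on the log2 scale (SE 0.17, adjusted p = 0.127), did not pass the test, and its P0 replicates lay on either side of the libraries of E15.5 and E17. Among the other complex enzymes, Iars (isoleucyl), Rars (arginyl) and Eprs, which fuses the glutamyl and prolyl enzymes, fell by 0.72, 0.71 and 0.67 on the log2 scale (SE 0.12, 0.17 and 0.16), while Dars (aspartyl) was not called, at -0.48 on the log2 scale (SE 0.23, adjusted p = 0.0997). The P0 replicates of Dars were at 37.4 and 68.4 CPM. The 6 calls in this class held without any single library, and 5 of the 6 genes had E12.5 as their highest stage and E17 or P0 as their lowest, with Qars lowest at E15.5.

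The 12 other cytosolic genes went both ways. Over the whole span 4 rose, 2 fell and 6 did not pass the test, where 30.1% of all genes rose and 32% fell. Their median was 0.22 on the log2 scale. With total counts it was 0.75, and 10 of the 12 were called higher and 1 lower. Of all genes, 47.8% were called higher and 18.6% lower on that scale. Yars (ENSMUSG00000028811), the tyrosyl-tRNA synthetase, was at 22.9 and 22.5 CPM at stage E12.5, then 23.4 and 24.2 (E14), 28.2 and 29.7 (E15.5), 26.7 and 31.3 (E17) and 38.9 and 37.6 (P0). Its P0 libraries were above all others, and those of E15.5 and E17 above those of E12.5 and E14. Yars rose by 0.75 on the log2 scale (SE 0.11, adjusted p = 0.000415) from E12.5 to P0, a 1.68-fold change. Hars (ENSMUSG00000001380), the histidyl-tRNA synthetase, was at 26.9 and 27.8 CPM at stage E12.5, then 27.5 and 27.3 (E14), 29.1 and 31.3 (E15.5), 30.6 and 30.9 (E17) and 38.5 and 40.4 (P0). The 2 P0 libraries stood above the other 8, and the rise from E12.5 was 0.53 on the log2 scale (SE 0.09, adjusted p = 0.00115). Gars (glycyl, both compartments) and Nars (asparaginyl) rose by 0.38 and 0.40 on the log2 scale (adjusted p = 0.0224 and 0.0455). The call for Nars was lost when any one of 9 libraries was left out, P0 replicate 1 being the exception, and that for Gars without either E12.5 library or P0 replicate 2, with adjusted p up to 0.307 and 0.111.

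Vars and Tars, the valyl- and threonyl-tRNA synthetases, were the exceptions in this class. Vars (ENSMUSG00000007029) was at 15.2 and 16.6 CPM at stage E12.5, then 13.3 and 12.46 (E14), 9.22 and 8.19 (E15.5), 8.99 and 8.34 (E17) and 10.7 and 6.59 (P0). Tars (ENSMUSG00000022241) was at 20.1 and 19.1 CPM at stage E12.5, then 16.96 and 17.2 (E14), 14.3 and 13.8 (E15.5), 10.2 and 10.7 (E17) and 10.1 and 14.4 (P0). For both genes all libraries from E15.5 on were below those of E12.5 and E14, and for Tars those of E17 were lower again. Vars fell from E12.5 to P0 by 1.03 on the log2 scale (SE 0.19, adjusted p = 0.00183) and Tars by 0.63 (SE 0.15, adjusted p = 0.00647). Vars is not a member of the complex but is known to bind the elongation factor complex that takes charged tRNAs to the ribosome. Its P0 replicates lay well apart, with replicate 1 above and replicate 2 below the libraries of E15.5 and E17.

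**Figure D4:**
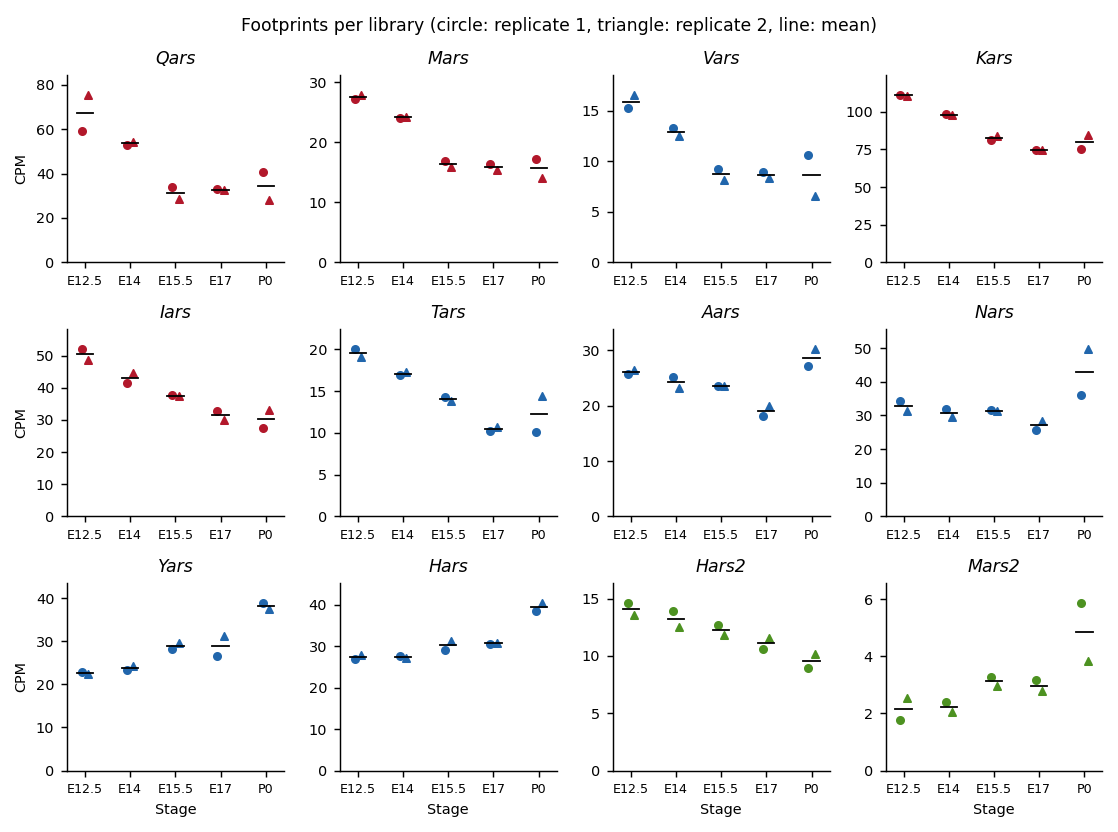
CPM (TMM-scaled, linear axes from 0) in each of the 10 libraries for 12 genes, with circles for replicate 1, triangles for replicate 2 and lines for stage means, red for complex, blue for other cytosolic and green for mitochondrial enzymes. Qars, Mars and Vars are lower from E15.5 on than at E14, Kars, Iars and Tars decline through E17, and Aars, Nars, Yars and Hars have both P0 libraries above both E17 libraries.

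The 17 mitochondrial enzymes had lower counts, with means between 34.9 (Aars2) and 687 (Tars2) per library. At P0 against E12.5, 2 rose, 5 fell and 10 did not pass the test, where 30.1% of all genes rose and 32% fell. With total counts 7 were called higher and 0 lower, where 47.8% of all genes were called higher and 18.6% lower. None of the 5 falls then kept its call. The median of the 17 enzymes was -0.25 on the log2 scale with TMM scaling and turned to 0.28 with total counts. The medians of all genes were -0.01 and 0.51. Mars2 (ENSMUSG00000046994), the methionyl enzyme of mitochondria, was at 1.76 and 2.54 CPM at stage E12.5, then 2.38 and 2.06 (E14), 3.28 and 2.96 (E15.5), 3.17 and 2.78 (E17) and 5.87 and 3.84 (P0). Both P0 libraries were above the other 8, with replicate 1 well above replicate 2. Its rise from E12.5 was 1.00 on the log2 scale (SE 0.25, adjusted p = 0.00828). Fars2 (ENSMUSG00000021420), the single-chain phenylalanyl enzyme, was at 6.76 and 9.31 CPM at stage E12.5, then 9.06 and 8.46 (E14), 9.97 and 13.1 (E15.5), 9.02 and 10.3 (E17) and 15.3 and 12.7 (P0). E15.5 replicate 2 was above P0 replicate 2, and the difference between P0 and E12.5 was 0.76 on the log2 scale (SE 0.20, adjusted p = 0.01), a call that was lost without E12.5 replicate 1 (adjusted p = 0.0654).

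At the other end of this class were the arginyl and seryl enzymes of mitochondria. Rars2 (ENSMUSG00000028292), mutated in a form of pontocerebellar hypoplasia, was at 7.81 and 7.67 CPM at stage E12.5, then 5.43 and 7.10 (E14), 5.06 and 5.83 (E15.5), 5.08 and 4.05 (E17) and 3.04 and 4.22 (P0). Sars2 (ENSMUSG00000070699) was at 6.49 and 10.7 CPM at stage E12.5, then 7.996 and 6.402 (E14), 6.18 and 4.77 (E15.5), 3.65 and 4.13 (E17) and 5.11 and 4.34 (P0). The P0 libraries of both genes were below those of E12.5, and the E12.5 replicates of Sars2 differed by more than its E14 and E17 libraries did. Rars2 fell by 0.996 on the log2 scale (SE 0.21, adjusted p = 0.0031) and kept its call without any single library. Sars2 fell by 0.90 (SE 0.26, adjusted p = 0.0173) and lost its call without E12.5 replicate 2 or P0 replicate 2 (adjusted p up to 0.152). Hars2, Vars2 and Ears2 fell by 0.54, 0.77 and 0.46. The calls for Vars2 and Ears2 had adjusted p of 0.0445 and 0.0449 and were lost in 7 and 8 of the 10 fits that left out a library, in each case including those without E12.5 replicate 2 or P0 replicate 2, with adjusted p up to 0.348 and 0.29.

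The 3 scaffold genes, whose proteins hold the complex together, were described in the same way. Aimp1 (ENSMUSG00000028029), whose protein can also be secreted as a cytokine, was at 49.6 and 46.0 CPM at stage E12.5, then 44.8 and 45.6 (E14), 42.4 and 43.1 (E15.5), 41.7 and 41.7 (E17) and 36.2 and 41.8 (P0). Aimp2 (ENSMUSG00000029610) was at 63.2 and 62.4 CPM at stage E12.5, then 55.2 and 59.4 (E14), 56.8 and 60.0 (E15.5), 53.6 and 58.8 (E17) and 55.8 and 68.7 (P0). Eef1e1 (ENSMUSG00000001707) was at 33.5 and 28.9 CPM at stage E12.5, then 31.7 and 35.4 (E14), 39.6 and 43.9 (E15.5), 43.8 and 47.9 (E17) and 34.0 and 43.4 (P0). Aimp2 libraries from E14 on overlapped from stage to stage, those of Aimp1 at P0 were below those of E12.5, and those of Eef1e1 at E15.5 and E17 were above those of E12.5 and E14. For P0 against E12.5 limma-voom called 0 of the 3, with 1 at an unadjusted p under 0.05, and edgeR and DESeq2 called 0 as well. With total counts Aimp2 and Eef1e1 were called higher, as were 47.8% of all genes. The median of the 3 with total counts was 0.52, where that of all genes was 0.51. The fitted differences were -0.28 on the log2 scale (SE 0.10, adjusted p = 0.0387) for Aimp1, which missed the fold threshold, -0.01 on the log2 scale (SE 0.12, adjusted p = 0.966) for Aimp2, and 0.33 on the log2 scale (SE 0.15, adjusted p = 0.0813) for Eef1e1. The F test called Eef1e1 (adjusted p = 0.0395), with its highest mean at E17. That the scaffold genes differ from the complex enzymes as a class was not tested.

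The steps between adjacent stages show when the members moved. From E12.5 to E14, where the background was 0.638% (0.497% higher and 0.141% lower), limma-voom, edgeR and DESeq2 each called 0 of the 40 genes, with 1 at an unadjusted p under 0.05. All 8 complex enzymes had values below 0 in this step, between -0.33 and -0.17 on the log2 scale, also with total counts, and their lowest adjusted p was 0.379. In the step from E14 to E15.5, where 36.1% of all genes were called (16.5% higher and 19.6% lower), 3 of the 40 changed, all lower (Qars, Mars and Vars), a share below the background, and edgeR and DESeq2 called 2 (Mars and Qars). Vars fell by 0.56 on the log2 scale (adjusted p = 0.0459), and this call was lost without any single library of a stage other than P0 (adjusted p up to 0.214). Without E15.5 replicate 2 the count was 0, with 2 genes at an unadjusted p under 0.05, and without either E14 library it was 1 (Mars). Without either P0 library, or without both, it was 6, with Yars2 also lower and Farsb and Mars2 higher. The share of all genes called in the fits without a library is not given. With total counts the median of all genes moved by 0.29 in this step, and 32.7% of all genes were called higher and 12.3% lower. Of the 40 members 11 were then called, all higher and Qars, Mars and Vars not among them. The median of the complex enzymes was then 0.04 instead of -0.26. Its distance of -0.25 from the median of all genes stayed the same, as a change of scaling can hardly move it.

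From E15.5 to E17, where 9.04% of all genes were called (5.61% higher and 3.43% lower), limma-voom, edgeR and DESeq2 called 0 of the 40, with 4 at an unadjusted p under 0.05. Values below 0 were seen in 33 of the 40, where the share over all genes was 50%, with a median of -0.14 over the 40 and of 0.00 over all genes. Without P0 replicate 1 or P0 replicate 2 the count was 3 (Tars, Nars2 and Lars, lower at E17), and without both it was 2 (Tars and Nars2). From E17 to P0, 5 of the 40 rose and none fell, where the background was 20.5%, with 9.46% higher and 11.1% lower. All 5 were other cytosolic enzymes, namely Nars, Aars, Cars, Yars and Hars, and edgeR and DESeq2 called 5 as well. Values above 0 were seen in 9 of the 12 other cytosolic genes (median 0.32). They were also seen in 14 of the 17 mitochondrial enzymes (median 0.24), 4 of them at an unadjusted p under 0.05. With total counts 8 members were called, all higher and Nars2 and Lars2 among them, where 13.6% of all genes were called higher and 7.83% lower. Nars (ENSMUSG00000024587) was at 34.3 and 31.3 CPM at stage E12.5, then 32.03 and 29.5 (E14), 31.5 and 31.3 (E15.5), 25.8 and 28.3 (E17) and 36.2 and 49.8 (P0). Aars (ENSMUSG00000031960), the alanyl-tRNA synthetase, was at 25.7 and 26.4 CPM at stage E12.5, then 25.2 and 23.2 (E14), 23.5 and 23.6 (E15.5), 18.2 and 19.9 (E17) and 27.1 and 30.3 (P0). Cars (ENSMUSG00000010755), the cysteinyl-tRNA synthetase, was at 14.8 and 16.8 CPM at stage E12.5, then 14.9 and 14.4 (E14), 13.5 and 13.5 (E15.5), 12.8 and 14.4 (E17) and 19.6 and 18.5 (P0). In all 3 genes both P0 libraries exceeded both E17 libraries, and P0 replicate 2 of Nars lay far above replicate 1. The rises were 0.68 on the log2 scale (SE 0.15, adjusted p = 0.0172) for Nars, 0.60 on the log2 scale (SE 0.10, adjusted p = 0.00684) for Aars and 0.48 on the log2 scale (SE 0.11, adjusted p = 0.0214) for Cars, with 0.40 for Yars and 0.36 for Hars (adjusted p = 0.0309 and 0.0258). Aars and Nars had their lowest stage mean at E17, and P0 against E12.5 gave 0.15 (adjusted p = 0.247) for Aars.

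The number of calls in this last step changed when a library was left out. The share of all genes called in those fits is not given, so whether other genes lost calls alike is not shown. Without E17 replicate 1 limma-voom called 0 members, with 5 at an unadjusted p under 0.05, without E17 replicate 2 it called 2 (Aars and Yars), and without E15.5 replicate 1 it called 3. Without P0 replicate 1 it called 9, 8 of them higher, and without P0 replicate 2 it called 12, 9 of them higher. Nars, Aars, Cars, Yars and Hars were among the higher genes in both. The call for Yars was lost in 7 of the 10 fits that left out a library, all those without an E12.5, E14 or E15.5 library and that without E17 replicate 1 (adjusted p up to 0.221).

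Cytosolic and mitochondrial enzymes were then set against each other. The 20 cytosolic genes had a median of -0.20 on the log2 scale from E12.5 to P0 and the 17 mitochondrial enzymes one of -0.25. The difference of 0.05 was smaller than the SD (0.23) of its 2 values from same-numbered replicates. That SD is a rough yardstick, since same-numbered replicates did not deviate alike in all stages. The difference lay between -0.15 and 0.13 over the fits that left out a library. From E14 to E15.5 the difference was 0.12 (SD 0.15, taken in the same way). The ratio of summed cytosolic to summed mitochondrial CPM was 7.21 ± 0.61 at stage E12.5, then 6.90 ± 0.01 (E14), 7.22 ± 0.24 (E15.5), 7.47 ± 0.20 (E17) and 6.92 ± 1.75 (P0, SD and n = 2). The 4 libraries of E15.5 and E17 lay between 7.05 and 7.61, above both E14 libraries (6.91 and 6.90), whereas the pairs of E12.5 (7.64 and 6.78) and P0 (5.68 and 8.15) spread across all of these. These ratios were not tested.

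For 14 amino acids a cytosolic and a mitochondrial enzyme could be paired by name. The cytosolic value of P0 against E12.5 was the higher of the pair in 7 and the mitochondrial in 7, and the signs were equal in 6. Mars and Mars2 lay farthest apart, at -0.86 and 0.996 on the log2 scale, a difference of -1.85 between enzymes that charge the same amino acid. Both were called, in opposite directions. The tyrosyl pair was at 0.75 for Yars and -0.35 on the log2 scale (SE 0.23, adjusted p = 0.213) for Yars2, which was not called. The histidyl pair was at 0.53 for Hars and -0.54 for Hars2, both called. Hars2 (ENSMUSG00000019143) was at 14.6 and 13.6 CPM at stage E12.5, then 13.96 and 12.6 (E14), 12.7 and 11.8 (E15.5), 10.6 and 11.6 (E17) and 8.92 and 10.2 (P0), with P0 below all other libraries, whereas Hars at P0 was above all others. Hars and Hars2 are neighbours whose RefSeq gene models overlap by 4 bases, and whether the counting used strand is not stated. The smallest difference was that of the tryptophanyl pair, Wars and Wars2, at 0.36 and 0.41, neither of which was called. The differences within pairs were not tested, and with total counts both values of a pair shift together.

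**Figure D5:**
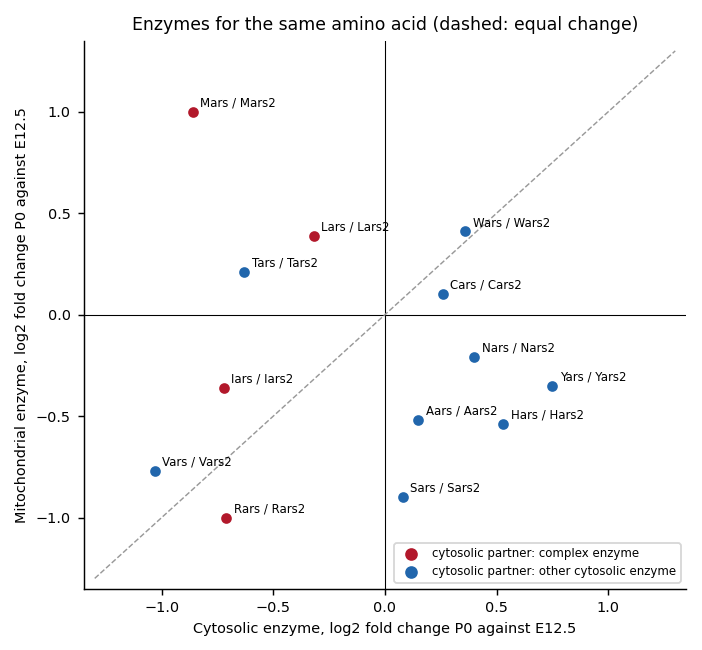
Fitted log2 fold change of P0 against E12.5 (TMM scaling) of the mitochondrial enzyme against that of the cytosolic enzyme for 13 of the 14 amino acids, red where the cytosolic partner belongs to the complex and blue where it does not, with equal change on the dashed line. Points lie on both sides of that line, 7 below and 6 above, with Mars / Mars2 at -0.86 and 0.996 farthest from it.

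The enzymes can also be divided by catalytic fold into class I and class II, whose active sites are unrelated in structure. Of the 19 class I enzymes, 2 rose and 9 fell from E12.5 to P0, with a median of -0.36 on the log2 scale. Of the 18 class II enzymes, 4 rose and 4 fell, with a median of 0.00, where 30.1% of all genes rose and 32% fell. With total counts these medians were 0.16 and 0.53, where that of all genes was 0.51. On that scale 7 class I enzymes were called higher and 3 lower, against 10 and 0 of class II. Of all genes, 47.8% were then called higher and 18.6% lower. The class I list holds 6 of the 8 complex enzymes, so both groupings share genes. Eprs, which fuses a glutamyl and a prolyl enzyme, was counted in class I only, although the prolyl Pars2 was in class II.

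Transcription of many cytosolic synthetase genes is known to be raised by Atf4, a factor made when amino acids run short and eIF2 is phosphorylated, which binds C/EBP-ATF response elements in their promoters. Of the 20 cytosolic genes, 12 were listed as targets (Aars, Cars, Eprs, Gars, Iars, Lars, Mars, Nars, Sars, Tars, Wars and Yars). From E17 to P0, 4 of these 12 rose (Aars, Cars, Nars and Yars), and 1 of the other 8 did (Hars), where 9.46% of all genes rose. At P0 against E12.5, 3 of the 12 rose (Gars, Nars and Yars) and 4 fell (Eprs, Iars, Mars and Tars), with a median of 0.12, and of the other 8, 1 rose and 4 fell, with a median of -0.48, where 30.1% of all genes rose and 32% fell. With total counts the medians were 0.65 and 0.06, where that of all genes was 0.51. On that scale 7 of the 12 were called higher and 1 lower, and 3 and 2 of the other 8. Of all genes, 47.8% were then called higher and 18.6% lower. Promoter windows from 250 bases before to 50 after the start (RefSeq, GRCm38.p6) were searched on both strands for TGATGNAAN, the core of this element. It was found in 3.95% of 32851 windows of all genes and in 5 of the 29 members with a window used here, all 5 of them listed targets. A window was at hand for 7 of the 12 listed targets and for 5 of the other 8 cytosolic genes. It was in 5 of these 12 genes with a window, and of the 14 mitochondrial enzymes in 0. A match in each of these genes, read along the gene's strand with 10 bases on either side and the element in capitals, is shown because the 5 genes that share it differ in their course:
Aars, chr8:111033840-111033868, plus strand, 9 bases into the transcript: agcgggtcacTTTTCATCAgagcgctctg
Gars, chr6:55037960-55037988, plus strand, 31 bases before the start: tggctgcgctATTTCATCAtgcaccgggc
Iars, chr13:49682126-49682154, plus strand, 7 bases into the transcript: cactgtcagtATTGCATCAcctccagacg
Tars, chr15:11399656-11399684, minus strand, 16 bases before the start: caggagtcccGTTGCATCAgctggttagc
Yars, chr4:129189896-129189924, plus strand, 4 bases into the transcript: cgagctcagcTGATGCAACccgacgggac
With TMM scaling, genes that hold the element both rose and fell. Yars and Gars rose and Iars and Tars fell from E12.5 to P0, and Aars rose from E17 to P0 and was not called in the other 4 comparisons. With total counts the 2 falls were not called (Iars -0.19 on the log2 scale). Yars, Gars and Aars were then called higher from E12.5 to P0. A match of letters is not a binding site, and binding was not measured here. Cars, Hars, Hars2, Lars, Mars, Nars, Pars2, Rars, Vars and Wars were not searched.

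Other genes of the Atf4 programme, for amino acid synthesis and transport and stress signalling, were taken from a list of 25, of which 23 were tested. Between E14 and E15.5, 3 rose and 11 fell, with a median of -0.60 on the log2 scale, where 16.5% of all genes rose and 19.6% fell. Scaled by total counts, 3 rose and 8 fell, where 32.7% of all genes rose and 12.3% fell. Asns, the asparagine synthetase, rose by 0.55, and Pycr1, of proline synthesis, by 0.55. The largest falls were in genes with low levels and wide error. Slc7a11, the cystine transporter, fell by 3.62 (SE 0.66, 2.13 CPM at E14 and 0.16 at E15.5). Nupr1 fell by 2.32 (SE 0.70, 1.95 and 0.40 CPM) and Cebpb by 1.28 (SE 0.30, 1.265 and 0.52 CPM). Falls were also called at higher levels, such as that of Psat1 by 0.95 (SE 0.09, 241 and 125 CPM). Over the whole span again 3 rose and 11 fell, where 62.1% of all genes were called. Scaled by total counts, 5 rose and 7 fell, where 47.8% of all genes rose and 18.6% fell. Asns went from 16.8 to 52.5 CPM, a rise of 1.65 (SE 0.11, adjusted p = 4.93e-06), while Psat1, of serine synthesis, went from 298 to 72.5 CPM, a change of -2.04 (SE 0.09, adjusted p = 9.11e-07). From E17 to P0, 2 of the 23 rose and 0 fell, with a median of -0.03 where that of all genes was -0.02. Of all genes, 9.46% rose and 11.1% fell in this step. Scaled by total counts, again 2 rose and 0 fell, where 13.6% of all genes rose and 7.83% fell. The 2 genes were Asns, which rose by 1.08 (SE 0.10, adjusted p = 0.00106), and Xpot, which rose by 0.41 (SE 0.12, adjusted p = 0.0386).

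Accessory genes of charging and delivery, such as elongation factors, editing enzymes and the mitochondrial amidotransferase, formed a list of 20, of which 19 were tested. Between E14 and E15.5, 1 rose and 4 fell, with a median of -0.08, where 36.1% of all genes were called. Scaled by total counts, 6 rose and 2 fell, where 32.7% of all genes rose and 12.3% fell. Eef1a2, the elongation factor that replaces Eef1a1 in mature neurons, rose by 1.47 on the log2 scale, and Eef1d, a subunit of its exchange factor, fell by 1.03. From E12.5 to P0, 3 rose and 6 fell, below the 62.1% of all genes. Scaled by total counts, 12 rose and 2 fell, where 47.8% of all genes rose and 18.6% fell. Eef1a2 rose from 6.36 to 84.8 CPM, 13.3-fold, while Eef1a1 went from 2015 to 1216 CPM, a change of -0.74 (SE 0.12, adjusted p = 0.000908). Dtd1, which removes D-amino acids from tRNAs, rose by 1.81, and Prorsd1, related to the editing domain of prolyl-tRNA synthetases, fell by 1.95. Tarsl2, a second cytosolic threonyl-tRNA synthetase outside the symbol rule, rose by 0.57 (adjusted p = 0.0201) where Tars fell by 0.63.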

How the data were processed

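Ribo-seq of neocortex gave 10 libraries, 2 at each of 5 stages, grouped by the stage in their labels. The authors deposited 1 table of whole-number footprint counts per gene. The study's methods state that duplicate reads were collapsed after adapter trimming, that tRNA, rRNA and snoRNA sequences were discarded, and that STAR (version 2.7.0 in the submitters' processing notes) aligned the rest to the transcriptome and genome of GENCODE release M12, keeping multiply mapped reads. They name DeepShape-prime, which estimates isoform abundance, and tximport for length-corrected counts per gene. Whether this table came from those steps is not given in the sources used here, so genes with near-identical copies are uncertain.

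Members and gene lists were chosen with earlier results of these data known. Genes with at least 32 counts, summed over the 2 libraries, in any stage were kept (13484 of 22373). Counts were fitted with limma-voom (limma 3.58.1, R 4.3.3) on TMM-scaled library sizes (edgeR 4.0.16), with 1 coefficient per stage over all 10 libraries. The study's methods name voom, for changes from E12.5 and between adjacent stages, while the scaling and this model were chosen here. Two-sided moderated tests were adjusted by Benjamini-Hochberg over all genes kept, and calls needed both an adjusted p below 0.05 and a change of 1.25-fold or more. Comparisons numbered 5: each stage against the one before it (4), and P0 against E12.5. The code was tested on simulated counts. Alternatives were edgeR's quasi-likelihood test, DESeq2 (1.42.0), other scalings and filters, sample quality weights, a replicate block, leaving out each library, fits of only 2 stages, and, chosen after seeing the data, a fit without both P0 libraries.

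Values in each library are given for the scaffold genes, the 2 highest and 2 lowest members of each enzyme class in P0 against E12.5, and members called in a step between adjacent stages. From other lists, at most the 3 largest called genes in each direction are named, and Psat1 was added for E14 to E15.5 after its values were seen. Further members were named after their values were seen. The planned naming by level per coding length was not made, since no coding lengths were at hand, so levels are not compared between genes. Members on the chromosome of Hars were left out of the promoter search. A further promoter match and the values of 1 mitochondrial member, which is counted in the totals, are not reported here. The spread comes from 2 pools per stage.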

Additional observations from a re-analysis of the deposited data

How the results depend on the processing

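Among the values of called members under alternatives, 401 kept direction and call, 113 lost the call and 2 turned direction, both in P0 against E12.5 with total counts only (Kars 0.061 and Ears2 0.057 on the log2 scale). The share of all genes called is given only for the main fit and for total counts. Counts from the other fits can therefore not be set against all genes. The number of members called from E12.5 to E14 was 0 throughout. From E14 to E15.5 it was 3, and 11 with total counts only, 6 with sample quality weights, 7 in a fit of only these 2 stages, 6 without both P0 libraries, and 0 to 6 when 1 library was left out. From E15.5 to E17 it was 0, and 3 with quality weights, 3 in a fit of only these stages, 2 without both P0 libraries, and 0 to 3 when 1 library was left out. From E17 to P0 it was 5, and 8 with total counts only, 3 with no filter on low counts, 0 with quality weights (5 at an unadjusted p under 0.05), 0 in a fit of only these stages (6 at an unadjusted p under 0.05), and 0 to 12 when 1 library was left out. For P0 against E12.5 it was 19, and 12 with quality weights, 8 in a fit of only these stages, and 16 to 26 when 1 library was left out. The F test called 21, and 11 to 31 when 1 library was left out. The difference between the cytosolic and mitochondrial medians moved by less than its SD between same-numbered replicates under every alternative run. That SD is a rough yardstick, from 2 values that depend on how replicates are numbered. Other scalings shift both medians alike, so those fits could hardly move the difference. With 1 library left out, the difference lay between 0.006 and 0.147 from E14 to E15.5. From E12.5 to P0 it lay between -0.151 and 0.132, so its sign was not fixed. The cause of these differences was not tested. A stage left with 1 library is assumed to vary like the others.

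Same-numbered replicates did not deviate alike in all stages: over 10 pairs of stages the correlation of their deviations ran from -0.641 to 0.429, with 5 above 0.1. Pairs with E12.5 lay between -0.641 and -0.109, and pairs of the other stages between -0.044 and 0.429. What the replicates share across stages was not tested. With the replicate number as a block, limma-voom called 0, 3, 0, 4 and 16 members in the 5 comparisons in the order above and 17 by the F test, and the medians differed by 0.119 and 0.052.

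The precision rests on 2 pools per stage, and the P0 replicates lay far apart. Mitochondrial enzymes with few counts, such as Aars2 with a mean of 34.9 per library, have wide counting error.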

Other observations

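Enzymes that process and modify tRNAs, upstream of charging, were described by a list of 74 genes, all tested. Between E12.5 and P0, 17 rose and 28 fell, with a median of -0.28 on the log2 scale, where the median of all genes was -0.01 and 62.1% of all genes were called. With total counts 29 rose and 8 fell, where 47.8% of all genes rose and 18.6% fell. Rpp25, a subunit of the RNase P and MRP family, rose by 3.11, from 1.03 to 9.55 CPM, while Rpp40, of the same enzyme, fell by 1.82, from 10.4 to 2.94 CPM. Ctu1, which thiolates the wobble base of some tRNAs, rose by 1.02 and Rpp21 by 0.95. Pus10, a pseudouridine synthase, fell by 2.18, from 18.6 to 3.70 CPM, and the methyltransferase Trmt2b by 1.81. From E14 to E15.5, 7 of the 74 rose and 10 fell, below the 36.1% of all genes called. Scaled by total counts, 18 rose and 2 fell, where 32.7% of all genes rose and 12.3% fell.

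Genes that sense uncharged tRNAs or amino acids were listed together with other eIF2 kinases and further genes of eIF2 and mTORC1 signalling. This list held 25 genes, of which 24 were tested. At P0 against E12.5, 7 rose and 6 fell, with a median of 0.09, where 62.1% of all genes were called. Scaled by total counts, 13 rose and 3 fell, where 47.8% of all genes rose and 18.6% fell. Eif2ak4, the kinase Gcn2 that uncharged tRNAs activate, fell by 1.22 on the log2 scale, from 13.7 to 6.02 CPM (SE 0.16, adjusted p = 0.000249). Eif2ak2, the kinase PKR, fell by 2.52, from 2.83 to 0.38 CPM. Sesn1, a sestrin of the family that senses leucine, fell by 0.98. Rragb, a Rag GTPase through which amino acids act on mTORC1, rose by 1.45, from 6.23 to 16.7 CPM (SE 0.16, adjusted p = 9.19e-05), Lamtor4, a subunit of its lysosomal anchor, by 1.11, and Ppp1r15a, which directs dephosphorylation of eIF2, by 1.08. Between E14 and E15.5, 3 of the 24 rose and 3 fell, where 36.1% of all genes were called. Scaled by total counts, 9 rose and 1 fell, where 32.7% of all genes rose and 12.3% fell.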
